A study of Mus musculus with 16 samples.

Results

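The 9 genes described here carry thyroid hormone into brain cells, activate it, bind it as receptors, or answer to it: Slco1c1, Dio2, Thra, Thrb, Rxra, Rxrg, Ncor1, Hr and Klf9. They were chosen by name for their known roles, with earlier results of these data known, and they are 9 of the 32207 genes in the count table. All 9 passed the filter on low counts, which left 16339 genes to be tested. RNA was sequenced from brain cells of OF-1 mice, an outbred strain, taken at postnatal day 16 and sorted with magnetic beads for O4, a lipid antigen on the surface of late precursors and oligodendrocytes. The labels give 4 groups with 4 libraries in each: male control, male BPA, female control and female BPA. Bisphenol A (BPA), a building block of polycarbonate plastics known to act on hormone receptors, reached the exposed pups through the drinking water of their dams, from gestational day 7 and through lactation. The labels state 40 µg/kg/day and the design text 250 µg/mL of water; the scale of the dose was not settled, since both figures imply a very low water intake. All 4 groups share strain, age and sort, and no allele or transgene is named. Neither litters nor batches are labelled. Because the dams were exposed, littermates share an exposure, and p-values that treat each library as independent may be too small.

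Thyroid hormone enters the brain mainly as the prohormone thyroxine, and is turned into the active triiodothyronine by the deiodinase DIO2, which in the brain is made largely by glial cells such as astrocytes and tanycytes. The active hormone binds the nuclear receptors THRA and THRB, which sit on DNA as heterodimers with RXR proteins. Without hormone these receptors recruit corepressors such as NCOR1. In the oligodendrocyte lineage the hormone is known for its part in the timing of precursor differentiation and for its effect on myelin genes such as Mbp.

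Total counts were from 23603816 to 42575326 per library. Levels are counts for every 1000000 of the scaled library (CPM), in which 3 counts, the number taken as the limit of detection, correspond to 0.0707 to 0.127 CPM. The 12 myelinating oligodendrocyte markers were all detected and summed to between 116426 and 164982 CPM. The 10 of 12 neuron markers that passed the filter summed to 26.4 to 41.6 CPM. Microglia markers summed to 556 to 2421 CPM, and ependymal and choroid plexus markers to 126 to 705 CPM. One library stood apart. In male BPA 2 the 12 astrocyte markers, such as Aqp4, Gfap and Slc1a2, summed to 6998 CPM, against 1042 to 2790 CPM in the other 15 libraries. That library also had the lowest myelinating sum, 116426 CPM against 128767 to 164982, and the highest endothelial sum, 187 CPM against 59.7 to 166. For the members, results that rest on it are given with and without it below.

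Slco1c1 (ENSMUSG00000030235), which encodes the organic anion transporter OATP1C1 that carries thyroxine across the blood-brain barrier and into astrocytes, was read at 44.99, 52.5, 35.4 and 38.96 CPM in the male controls and at 42.1, 162, 21.3 and 21.8 CPM in male BPA. It was at 46.9, 41.4, 30.5 and 61.3 CPM in the female controls and at 29.2, 29.8, 49.9 and 41.8 CPM in female BPA. Male BPA held both the highest value and the 2 lowest of all 16 libraries, and the groups of both sexes overlapped. Dio2 (ENSMUSG00000007682), the activating deiodinase, was at 26.8, 32.8, 22.9 and 23.9 CPM in the male controls and at 31.6, 110.0, 16.8 and 16.99 CPM in male BPA. In females it was at 26.4, 23.6, 18.8 and 37.8 CPM in the controls and at 27.3, 29.8, 37.6 and 26.5 CPM after BPA. The order of the male BPA libraries was that of Slco1c1, with male BPA 2 highest and libraries 3 and 4 lowest. Thrb (ENSMUSG00000021779), the beta receptor, was at 3.49, 3.51, 2.39 and 2.92 CPM in the male controls, and at 2.73, 9.36, 2.38 and 2.23 CPM in male BPA. The female values of Thrb were 2.68, 2.27, 2.05 and 3.16 CPM in controls and 2.86, 3.07, 3.62 and 2.29 CPM after BPA. Again male BPA 2 was highest of all, and the other 15 libraries lay between 2.05 and 3.62 CPM.

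**Figure D1:**
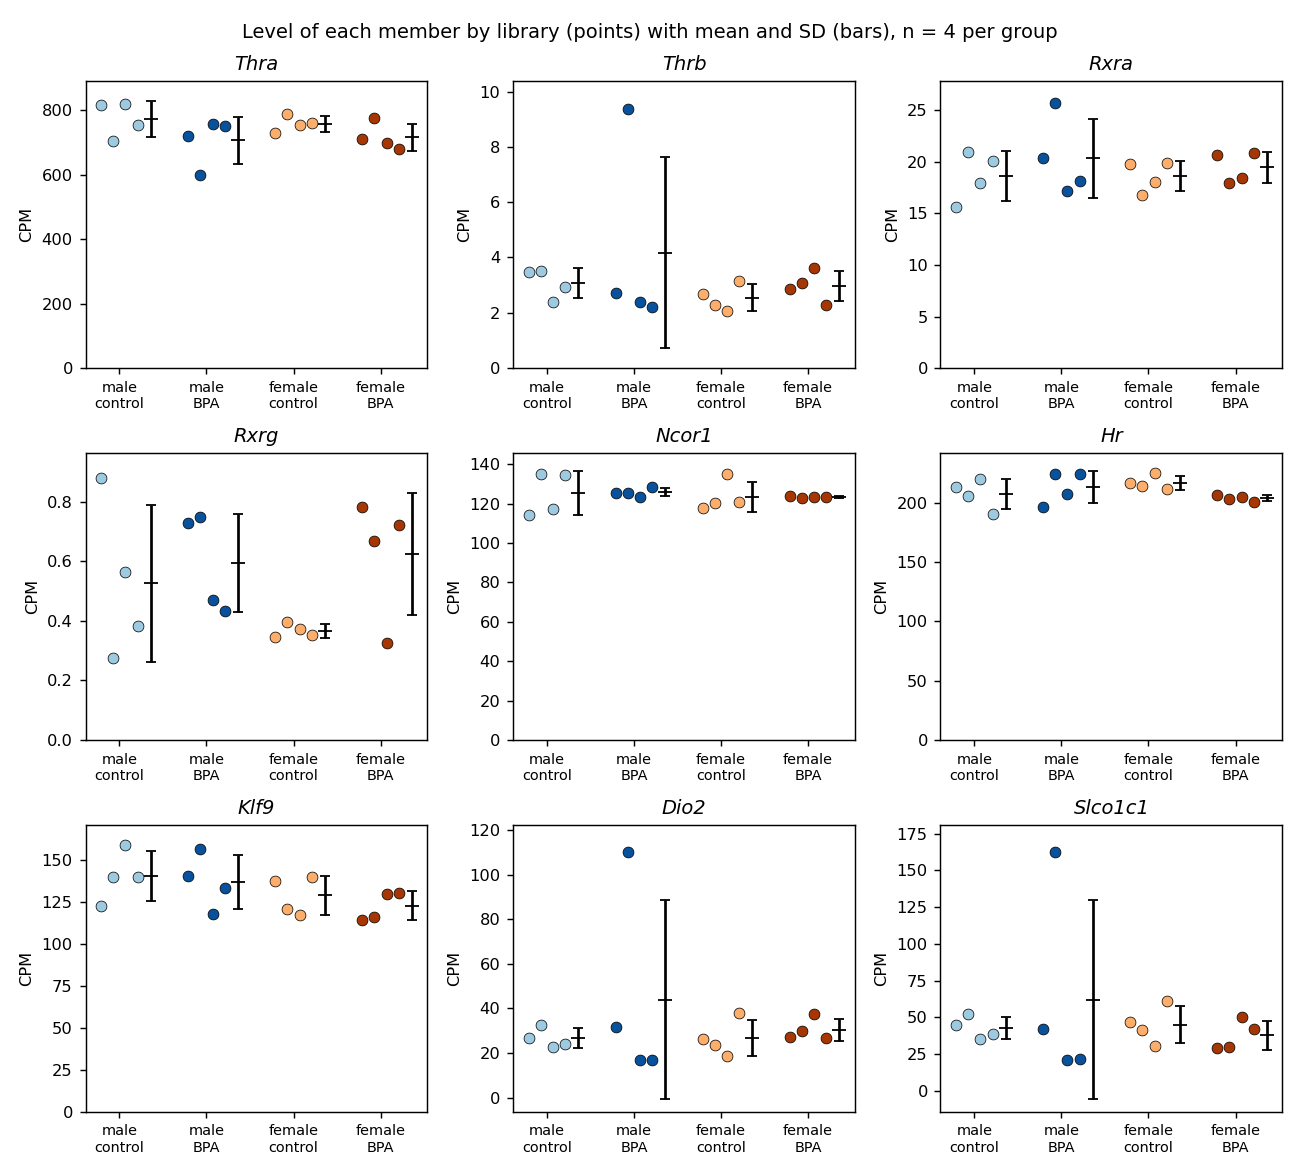
Level of each of the 9 genes (CPM, vertical axis) in the 4 groups; points are libraries, and the bar beside them is the mean ± SD of 4 libraries. In Thrb, Dio2 and Slco1c1 the point of male BPA 2 lies far above the rest (9.36, 110.0 and 162 CPM), while Ncor1 and Hr vary little.

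Since these 3 genes moved together across libraries, the DNA just before their transcription starts is shown, as given by RefSeq on build GRCm38.p6, a build older than the mm39 of the deposited counts. Each window holds the 250 bases before an annotated start, written 5′ to 3′ on the gene's own strand. AGGTCA, the half-site that nuclear receptors of this family bind, was searched on both strands (TGACCT on the other), and is in capitals where found. Dio2 (chr12:90739039-90739288, minus strand) and Slco1c1 (chr6:141524104-141524353, plus strand) had none. Of the 2 starts of Thrb, the first (chr14:17660710-17660959, plus strand) had 1, beginning at position -184 from the start, and the second (chr14:17981394-17981643, plus strand) had none.
Dio2: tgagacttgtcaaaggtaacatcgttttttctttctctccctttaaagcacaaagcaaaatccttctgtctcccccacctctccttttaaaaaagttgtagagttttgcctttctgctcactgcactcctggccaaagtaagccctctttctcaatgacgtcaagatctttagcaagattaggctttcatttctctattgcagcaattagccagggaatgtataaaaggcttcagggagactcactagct
Slco1c1: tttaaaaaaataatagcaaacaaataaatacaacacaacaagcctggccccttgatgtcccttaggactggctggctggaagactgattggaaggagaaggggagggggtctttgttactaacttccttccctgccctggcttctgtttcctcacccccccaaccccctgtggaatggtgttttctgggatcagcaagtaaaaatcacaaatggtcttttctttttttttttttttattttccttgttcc
Thrb, first start: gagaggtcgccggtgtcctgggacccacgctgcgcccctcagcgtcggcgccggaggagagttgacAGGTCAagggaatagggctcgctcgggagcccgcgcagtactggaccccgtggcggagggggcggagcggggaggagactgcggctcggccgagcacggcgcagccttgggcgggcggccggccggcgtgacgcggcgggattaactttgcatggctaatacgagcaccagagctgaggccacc
Thrb, second start: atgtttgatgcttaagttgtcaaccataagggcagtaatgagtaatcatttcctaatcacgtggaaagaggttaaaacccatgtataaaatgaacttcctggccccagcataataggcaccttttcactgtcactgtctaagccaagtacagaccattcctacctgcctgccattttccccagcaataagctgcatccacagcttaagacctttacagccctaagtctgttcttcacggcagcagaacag
Of all 32817 promoter windows of this length, 14.03% held a half-site, and 5 (0.0152%) held the pair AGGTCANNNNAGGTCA on either strand, the spacing typical of receptor and RXR heterodimers. No window of the 7 members matched by symbol held the pair. Among the others matched, 1 of 2 windows of Rxra and 1 of 2 of Rxrg held a half-site, and those of Klf9 and Ncor1 held none. The windows of Dio2 and Slco1c1 were 41.6% and 42.8% G and C, and those of Thrb 71.6% and 44%, beside a median of 52.4% over all windows. These matches describe letters only, and binding was not measured.

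Thra (ENSMUSG00000058756), the alpha receptor and the main thyroid hormone receptor gene of brain, was at 815, 703, 819 and 754 CPM in the male controls and at 719, 600, 755 and 751 CPM in male BPA. In females it was at 729, 787, 752 and 759 CPM in the controls and at 712, 775, 698 and 678 CPM after BPA. Its lowest library was male BPA 2, the one in which Thrb was highest, and exposed and control values overlapped in both sexes. Read by the authors' counts per kilobase of transcript, Thra had a median of 39288 and Thrb of 122. The 2 ranges were far apart (31186 to 42998 for Thra and 88.6 to 403 for Thrb), and Thra was the higher in every library. Exons of Thra overlap those of Nr1d1, a clock gene on the opposite strand, over 263 bases, 5.70% of Thra's exon bases. The library kit keeps strand, but the strand setting of the counting is not given in the sources used here. Nr1d1 was at 71.2 CPM in male BPA 2 and at 21.4 to 47.3 CPM elsewhere, so it went the other way from Thra in that library.

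Among the heterodimer partners, Rxra (ENSMUSG00000015846) was at 15.6, 20.97, 17.97 and 20.1 CPM in the male controls and at 20.3, 25.8, 17.2 and 18.2 CPM in male BPA. Female values of Rxra were 19.8, 16.8, 18.1 and 19.9 CPM in controls and 20.6, 17.96, 18.5 and 20.8 CPM after BPA. Its range within each group was wider than the gap between group means. Rxrg (ENSMUSG00000015843) was low, with 7 to 32 counts per library. In females it was at 0.345, 0.395, 0.371 and 0.354 CPM in the controls and at 0.781, 0.669, 0.325 and 0.720 CPM after BPA. Exposed female libraries 1, 2 and 4 lay above every female control, and library 3 lay below them all, so the groups overlapped. Male values of Rxrg spanned 0.276 to 0.878 CPM in controls and 0.434 to 0.747 CPM after BPA, each on 32 counts or fewer. Rxrb, the third RXR gene, was not among the 9 and was steadier, at 44.01 to 52.6 CPM in all libraries.

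Ncor1 (ENSMUSG00000018501), the corepressor that binds receptors without hormone, was at 114, 135, 117 and 135 CPM in the male controls and at 126, 126, 124 and 129 CPM in male BPA. It was at 118, 121, 135 and 121 CPM in the female controls and at 124, 123, 123 and 123 CPM after BPA. The exposed libraries of both sexes were closely grouped inside the range of their controls, with SDs of 2.11 and 0.444 CPM against 11.1 and 7.71 CPM; the difference in spread was not tested. Of the stretches of 50 bases in Ncor1 transcripts, 1.14% also occur in other genes, most in Gm6743, against 0.299% for Rxrg, 0.122% for Thrb and 0% for the other members. Hr (ENSMUSG00000022096), which encodes the corepressor hairless and is itself induced by thyroid hormone in brain, was at 213, 205, 219 and 190 CPM in the male controls and at 196, 224, 208 and 224 CPM in male BPA. In females Hr was at 216, 214, 225 and 211 CPM in the controls and at 206, 203, 205 and 200.3 CPM after BPA. Every exposed female lay below every control female, a mean of 204 ± 2.57 CPM against 217 ± 5.88 (SD, n = 4 each), while the males overlapped. Hr was the 1 member of 9 whose groups did not overlap in females, where 544 of the 16339 tested genes (3.33%) did not. No member was free of overlap in males, where 727 genes (4.45%) were. Klf9 (ENSMUSG00000033863), a transcription factor gene switched on directly by the hormone, was at 123, 140, 159 and 140 CPM in the male controls and at 140, 156, 118 and 133 CPM in male BPA. The female values of Klf9 were 138, 121, 117 and 140 CPM in controls and 114, 116, 130 and 130 CPM after BPA. The groups of Klf9 overlapped in both sexes.

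On the authors' scale per kilobase of transcript the order of the 9 levels was Thra, Ncor1 (median 5346), Klf9 (1614), Hr (1359), Slco1c1 (549), Rxra (366), Dio2 (157), Thrb (122) and Rxrg (8.45). The ranges over 16 libraries did not overlap between Thra and Ncor1, between Ncor1 and Klf9, or between Thrb and Rxrg. All other neighbours overlapped, though the higher gene of each pair was higher in 13 to 15 of the 16 libraries. The authors divided by the median length over a gene's transcripts, which is 0.654 kb for Thra and 0.793 kb for Ncor1. With the longest transcript of GENCODE M21 in its place (a choice made after seeing the data), 2452 bases for Thra and 9037 for Ncor1, the order of CPM per kilobase became Thra (306), Hr (37.3), Klf9 (29.4), Ncor1 (13.7), Slco1c1 (13.1), Dio2 (4.58), Rxra (3.90), Thrb (0.451) and Rxrg (0.214). Thra stayed first and Rxrg last on both scales. The places of Ncor1 and Hr depended on the length used, and Dio2 and Rxra changed places.

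The first question of the design is whether BPA changed these genes. None of the 9 passed the test in males, in females or over both sexes (limma-voom, Benjamini-Hochberg adjusted over all 16339 genes, threshold 0.05), and none had an unadjusted p under 0.05. Very few genes of the whole table passed: 1 in males (0.00612%), 0 in females (0%) and 3 over both sexes (0.0184%). At an unadjusted p under 0.05 there were 1300 genes in males (7.96%), 744 in females (4.55%) and 1256 over both sexes (7.69%). In males 7 members had a fitted value above 0 and 2 below, with a median log2 fold change of 0.04 against 0.01 over all tested genes, of which 52.5% were above 0. That split rested on male BPA 2: without it 4 members were above 0 and 5 below, with a median of -0.06 against -0.006 over all genes, of which 48.5% were above 0. In females 4 were above and 5 below, with a median of -0.0001 against 0.002 over all genes, of which 50.6% were above 0.

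The estimates differed in precision by member. Hr, Ncor1, Klf9 and Thra were bounded closely. Over both sexes, the fitted difference of BPA from control was -1.66% for Hr (95% confidence interval -7.08% to 4.07%), 0.293% for Ncor1 (-5.73% to 6.70%) and -3.66% for Klf9 (-12.7% to 6.30%). Thra had the smallest p of the members, with a log2 fold change of -0.11 ± 0.05 (SE; limma-voom p 0.0669, adjusted 0.689), which is -7.11% with an interval from -14.2% to 0.581%. Its value was -0.13 ± 0.08 in males, where its p was the smallest of the members (0.108, adjusted 0.731), and -0.08 ± 0.08 in females. Without male BPA 2 the male value of Thra was -0.06 ± 0.06 and that over both sexes -0.07 ± 0.04. Klf9 in males went from -0.04 ± 0.09 to -0.10 ± 0.09 without that library, and Hr from 0.04 ± 0.05 to 0.02 ± 0.06.

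The remaining members were bounded loosely. Rxra had 7.13% over both sexes, with an interval from -5.65% to 21.6%. Its log2 fold change went from 0.10 ± 0.09 to 0.03 ± 0.07 over both sexes without male BPA 2, its highest library, and from 0.14 ± 0.12 to 0.01 ± 0.11 in males. Rxrg had a log2 fold change of 0.65 ± 0.36 in females, the smallest member p there (limma-voom p 0.0888, adjusted 0.999), and 0.22 ± 0.35 in males. With each library left out in turn, Rxrg ranged from 0.495 to 0.977 in females, the highest without female BPA 3, and from 0.00121 to 0.528 in males, where it was 0.09 without male BPA 2. For Dio2 the interval over both sexes ran from -25.0% to 93.9%, for Slco1c1 from -44.2% to 52.8% and for Thrb from -20.7% to 73.4%. Any change inside those 3 intervals is compatible with these data.

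**Figure D2:**
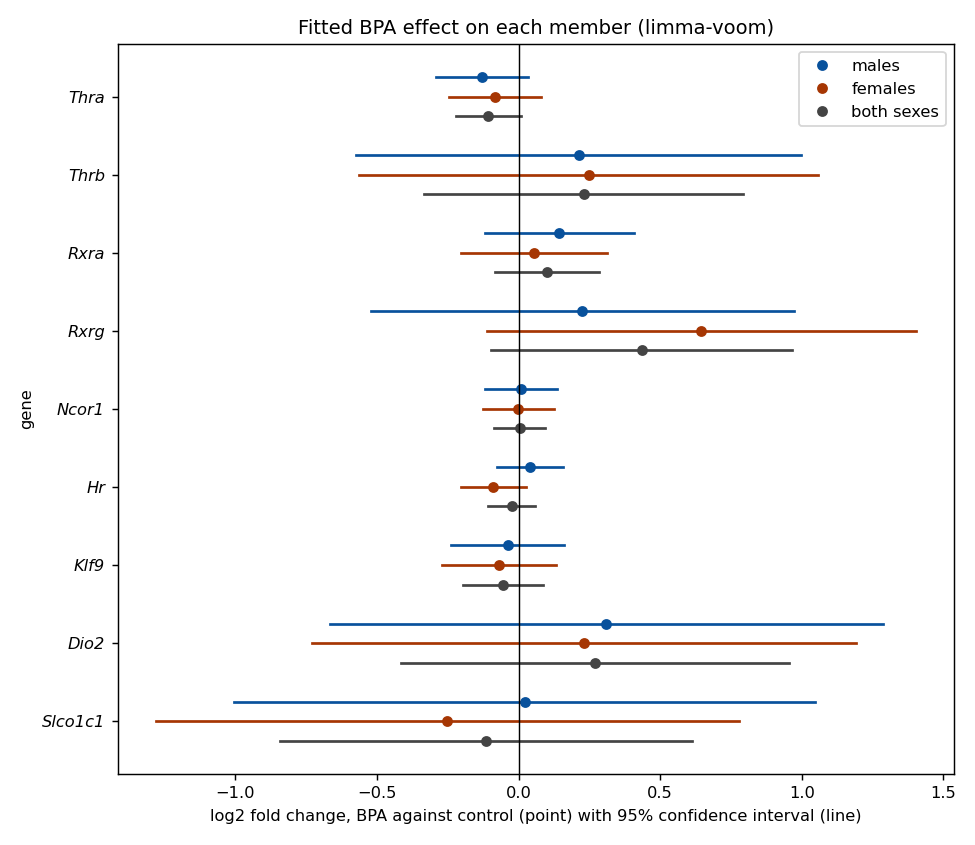
Fitted log2 fold change of BPA against control for each gene (horizontal axis), in males, females and over both sexes; points are estimates and lines are 95% confidence intervals. Every interval includes 0, and those of Slco1c1, Dio2, Thrb and Rxrg are the widest.

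The male values of Slco1c1, Dio2 and Thrb rested on male BPA 2. With all libraries their log2 fold changes in males were 0.02 ± 0.48, 0.31 ± 0.46 and 0.21 ± 0.37. Without male BPA 2 they were -0.65 ± 0.29, -0.32 ± 0.26 and -0.32 ± 0.20 (limma-voom adjusted p 0.428, 0.661 and 0.563), so each turned from above 0 to below. Of the 3, Slco1c1 then had an unadjusted p under 0.05, in males and over both sexes (limma-voom adjusted p 0.554 over both sexes). In that fit 1823 of 16460 genes (11.1%) had an unadjusted p under 0.05 in males, and 1371 (8.33%) over both sexes. Without male control 3 or male control 4 the male value of Slco1c1 was also below 0 (-0.07 and -0.01). Over both sexes, Dio2 and Thrb went from 0.27 ± 0.32 and 0.23 ± 0.26 to -0.05 ± 0.17 and -0.04 ± 0.13 without male BPA 2. Slco1c1 went from -0.11 ± 0.34 to -0.45 ± 0.19, and to 0.05 without male BPA 3 or male BPA 4.

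Levels of these 3 genes followed those of the astrocyte markers from library to library. With group means taken out, the Pearson correlation over 16 libraries between a gene's log2 CPM and the mean log2 CPM of the 12 markers was 0.98 for Dio2, 0.97 for Slco1c1 and 0.96 for Thrb. Spearman's rho was 0.99, 0.87 and 0.92. The permutation p was 1e-05, 7e-05 and 1e-05, of which 1e-05 is the smallest that 100000 permutations can give, and 0.000405, 0.00189 and 0.000405 after adjustment over 81 pairs of gene and marker list; for rho the p was 1e-05, 0.00047 and 1e-05, adjusted 0.000405, 0.0127 and 0.000405. Leaving out male BPA 2 and male BPA 4, the libraries farthest from the median of the list, gave r of 0.94, 0.89 and 0.88. Leaving out male BPA 2 alone gave 0.94, 0.89 and 0.87, with adjusted p of 0.00486, 0.00972 and 0.00648. The relation held without the library that stood apart. The astrocyte markers summed to 1406 to 2575 CPM in the male controls, 1042 to 6998 in male BPA, 1392 to 2790 in the female controls and 1842 to 2648 in female BPA, and none of the 12 was undetected. Among libraries other than male BPA 2, the lowest sums were in male BPA 3 and 4 (1229 and 1042 CPM), where Slco1c1 and Dio2 were lowest too. In a bulk sample, more cells of a type and more RNA per cell cannot be told apart.

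**Figure D3:**
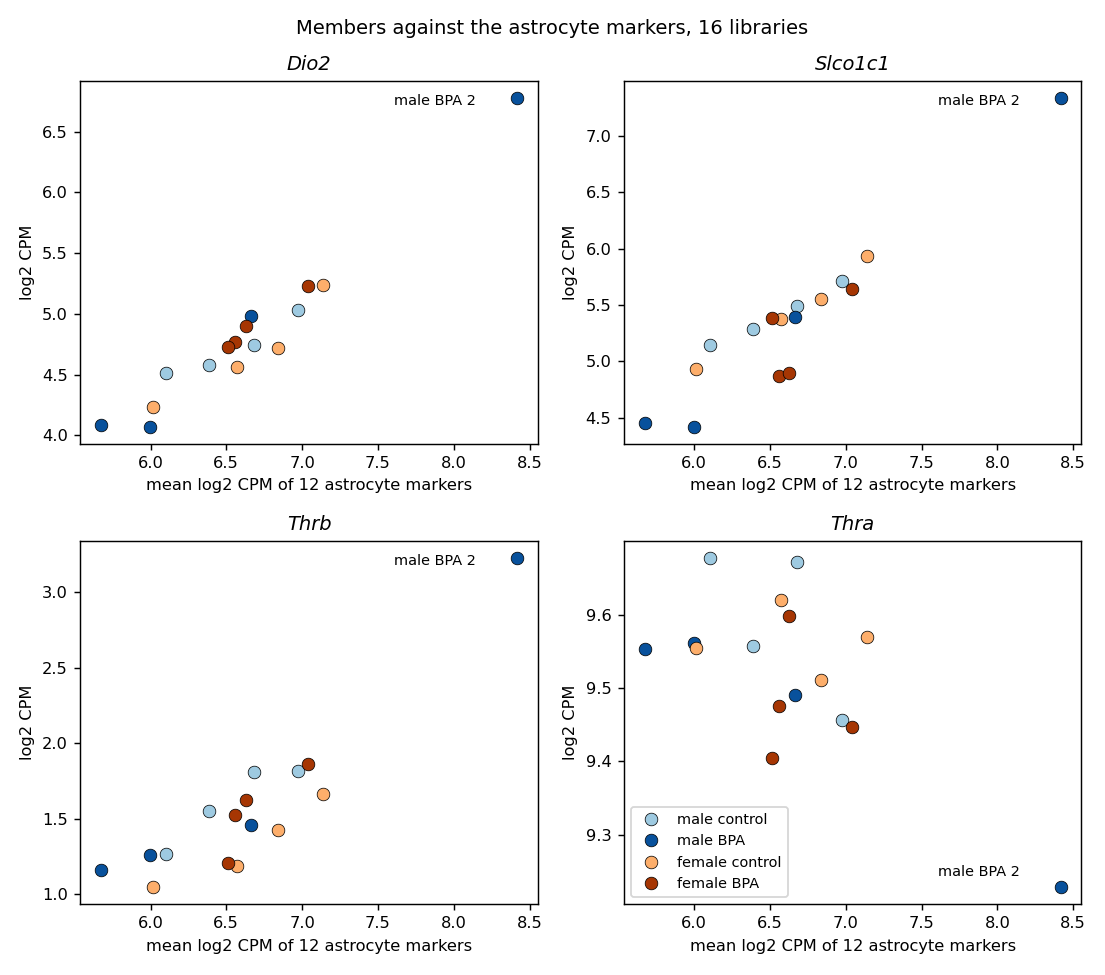
Log2 CPM of Dio2, Slco1c1, Thrb and Thra (vertical axes) against the mean log2 CPM of 12 astrocyte markers (horizontal axes); each point is a library, coloured by group. Dio2, Slco1c1 and Thrb climb with the markers also among the 15 libraries other than male BPA 2, and Thra does not. For Dio2, Slco1c1 and Thrb, r without that library was 0.94, 0.89 and 0.87 with group means taken out. The points are plotted with group means left in.

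Set against the astrocyte list within each library, the 3 genes varied much less. The log2 level of Dio2 minus the list mean spanned 0.53 over 16 libraries, against 2.71 for Dio2 itself and 2.74 for the list. The same difference spanned 0.77 for Slco1c1, whose own range was 2.93, and 0.96 for Thrb, whose own range was 2.18. For male BPA 2 the difference was -1.64 for Dio2, -1.07 for Slco1c1 and -5.19 for Thrb, each inside the range of the other libraries. Exposed and control libraries were compared on this scale, in a comparison set up with the values known. For Dio2 in females the mean was -1.78 ± 0.03 after BPA and -1.95 ± 0.15 in controls, and for Slco1c1 -1.49 ± 0.28 and -1.19 ± 0.08 (SD, n = 4 each; two-sided exact permutation p 0.114 for both, 0.343 adjusted over 6 comparisons). The other 4 exact permutation p-values were from 0.229 to 0.943 and the smallest that 4 against 4 can give is 0.0286. After adjustment over 6 a single comparison cannot go below 0.171, so the design could not have passed one alone, and these values do not show that the groups were alike.

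Only the members were correlated with the marker lists, and the share of all tested genes that would pass was not tested. Members and lists were chosen with earlier results of these data known, which the permutation p-values do not take into account. Of the 81 pairs of member and marker list, 4 passed, all positive. The other was Slco1c1 with the 12 endothelial markers, r 0.81 (permutation p 0.00216, adjusted 0.0437; rho 0.79, p 0.00168, adjusted 0.034). It was 0.64 without male BPA 2 (permutation p 0.0201, adjusted 0.264) and 0.54 without male BPA 2 and female control 4, so the call, but not the whole of the correlation, depended on male BPA 2. Thra ran the other way, with r of -0.75 with the astrocyte list and rho of -0.52 (permutation p 0.0217 and 0.0718, adjusted 0.194 and 0.316), and r was -0.37 without male BPA 2 and male BPA 4. Dio2 and Thrb had r of -0.78 with the myelinating list (permutation p 0.0417 and 0.0789, adjusted 0.194 and 0.291; rho -0.51 and -0.59, p 0.0756 and 0.0627, adjusted 0.316 for both). These were -0.18 for both without male BPA 2 and male BPA 3. Hr, Ncor1, Klf9 and the RXR genes had no pair that passed.

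**Figure D4:**
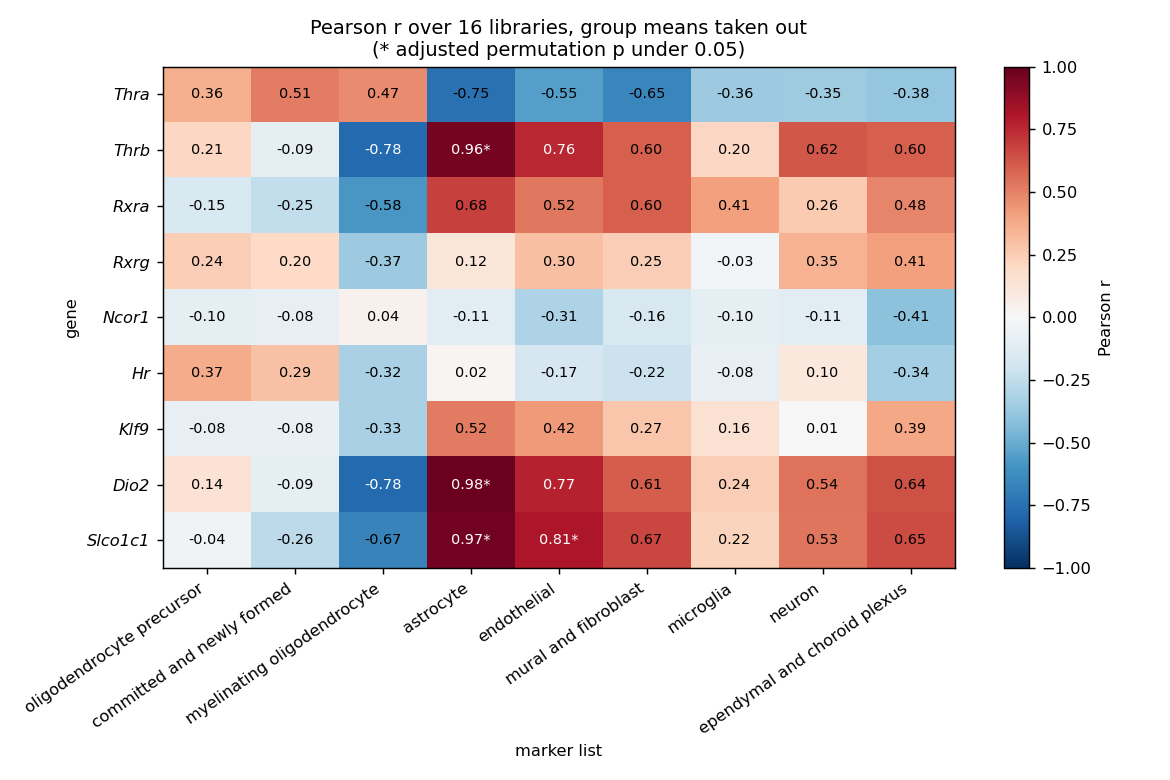
Pearson r between each gene (rows) and the mean of each cell type marker list (columns) over 16 libraries with group means taken out; colour runs from -1 to 1 and an asterisk marks an adjusted permutation p under 0.05. The 4 asterisks are Dio2, Slco1c1 and Thrb with astrocyte markers and Slco1c1 with endothelial markers.

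The genes most like each member over the 16 libraries, by Pearson r of log2 CPM, were sought among the 13416 genes that averaged 1 CPM or more. Nearest Dio2 were Cxcl14 and Aldoc, an astrocyte enzyme gene that is also in the astrocyte list (r 0.98 for both). Nearest Slco1c1 were Fjx1 (0.98) and Plpp3 (0.97), and nearest Thrb were Nim1k (0.98) and Agpat5 (0.97). For Thra they were Nlk and Rnf122 (0.91 for both), for Rxra Stat5b (0.90) and Fyco1 (0.89), and for Ncor1 Gapvd1 (0.94) and Huwe1 (0.89). Klf9 was nearest to Ttc30b (0.84), and Hr to BC037032 (0.79) and Gemin7 (0.73). Rxrg was under 1 CPM and was not ranked. Without male BPA 2 the same r were 0.95 and 0.96 for Dio2, 0.95 and 0.94 for Slco1c1, and 0.92 and 0.88 for Thrb. They were 0.89 and 0.87 for Thra, 0.84 and 0.83 for Rxra, and 0.95 and 0.91 for Ncor1. For Klf9 with Ttc30b r was 0.84, and for Hr 0.78 and 0.74. The ranking itself was made with that library in. These values describe likeness over these libraries and have no test.

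The second question is whether the sexes differed. No member passed in the difference of BPA effects between females and males, nor did any gene of the table (0%; 772 genes, 4.72%, had an unadjusted p under 0.05). Hr had the smallest member p there, with a female effect of -0.09 ± 0.05 and a male effect of 0.04 ± 0.05, a difference of -0.13 ± 0.08 on the log2 scale (limma-voom p 0.113, adjusted 0.999). Without male BPA 2, 1529 genes (9.29%) had an unadjusted p under 0.05, none passed, and the member with the smallest p was Thrb, with a difference of effects of 0.57 ± 0.27 (limma-voom p 0.0499, adjusted 0.537). Between females and males over both exposures, 11 genes passed (0.0673%) and 710 (4.35%) had an unadjusted p under 0.05, and no member was among either. Klf9 had the smallest member p, -9.06% in females (95% confidence interval -17.6% to 0.338%; limma-voom p 0.0574, adjusted 0.999). Without male BPA 2, 14 genes passed and 1604 (9.74%) had an unadjusted p under 0.05, and Klf9 was at -0.10 ± 0.06 on the log2 scale (limma-voom p 0.119). Its means were 140 ± 14.9 and 137 ± 16.0 CPM in male control and male BPA, and 129 ± 11.5 and 123 ± 8.66 CPM in the females (SD, n = 4).

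The wider pathway was read from 6 lists holding 42 further genes, of which 37 were tested. The lists also hold the members, so the counts by list further below include member values already given. Slco1b2, Slc17a4, Dio1, Dio3 and Pcp2 were too low, and Dio3, the deiodinase that inactivates thyroid hormone, had at most 15 counts in any library. None of the 37 passed in any comparison. At an unadjusted p under 0.05 there were 4 of 37 in males, 1 in females and 4 over both sexes, and 0 for the difference of effects or between sexes, beside the 7.96%, 4.55%, 7.69%, 4.72% and 4.35% of all genes given above. The median log2 fold change of the 37 was 0.06 in males, 0.04 in females and 0.03 over both sexes. Of the 37, 26, 21 and 24 were above 0. Over all tested genes the medians were 0.009, 0.002 and 0.003, and 52.5%, 50.6% and 51.2% were above 0. Signs in the 37 and in the lists below were counted with the library that stood apart left in. Whether those splits rest on that library was not tested.

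Of 10 transporters 8 were tested, Slco1c1 among them. Over both sexes 6 were above 0 and 2 below, with a median of 0.13. Over all tested genes 51.2% were above 0 in that comparison, with a median of 0.003. Slco1a4 and Ttr of that list are also endothelial and choroid plexus markers. The 5 receptor and RXR genes were the members Thra, Thrb, Rxra and Rxrg with Rxrb. Of them 3 were above 0 and 2 below in each of males, females and both sexes. Rxrb was at -0.03 ± 0.05 over both sexes (limma-voom adjusted p 0.921). Of the 6 genes for deiodinases and cytosolic binding 4 were tested, Dio2 among them, with 3 above 0 and 1 below over both sexes. The 9 coactivators, among them Ncoa1 and Med1, had 7 above 0 and 2 below, with a median of 0.03.

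Among the 8 corepressor genes, with the members Ncor1 and Hr counted, 4 were above 0 and 4 below over both sexes, with a median of -0.002. Tbl1x, a subunit of the NCOR1 corepressor complex, had 0.22 ± 0.08 in males (p 0.0131, limma-voom adjusted 0.496), with male controls at 34.4 to 41.7 CPM and male BPA at 39.8 to 48.2 CPM. Without male BPA 2 the male value of Tbl1x was 0.16 ± 0.08 (limma-voom adjusted p 0.450). In females it was at 0.001 ± 0.08, and the difference of effects was -0.21 ± 0.11 (p 0.0658, limma-voom adjusted 0.999).

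The list of thyroid hormone-responsive genes had 13 of 15 tested, the members Klf9 and Hr among them. Over both sexes 6 were above 0 and 7 below, with a median of -0.001. Mbp, which encodes myelin basic protein, was at 12984 CPM in male BPA 2 and at 15529 to 19877 CPM in the other libraries, with a log2 fold change of -0.07 ± 0.08 over both sexes (limma-voom adjusted p 0.897). Thrsp, a lipogenic gene first known from its response to thyroid hormone, had 0.42 ± 0.16 (p 0.0194, adjusted 0.538), and ran from 8.07 to 20.1 CPM in controls and from 13.7 to 22.9 CPM after BPA. Nrgn, the neuronal gene neurogranin, had -0.46 ± 0.18 over both sexes (p 0.022, adjusted 0.540) and -0.62 ± 0.25 in females (p 0.0265, adjusted 0.999), on 13 to 54 counts per library. Cbr2, a carbonyl reductase gene, had 0.64 ± 0.26 in males (p 0.0286, adjusted 0.556) and 0.39 ± 0.18 over both sexes (p 0.0437, adjusted 0.631), all by limma-voom. Thrsp and Cbr2 thus had positive values and Nrgn a negative one, and none of the 3 passed the adjusted threshold. Between sexes the smallest pathway p beside Klf9 belonged to Slc7a8, an amino acid and thyroid hormone carrier, at 0.34 ± 0.19 in females against males (limma-voom p 0.0954, adjusted 0.999). For the difference of effects, Cbr2 (-0.51 ± 0.35) and Camk4 (0.49 ± 0.37), a calcium-dependent kinase gene, came after Tbl1x, with limma-voom adjusted p of 0.999 for both.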

How the data were processed

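Poly(A) RNA libraries were made from 100 ng of total RNA with a stranded kit, per the labels' protocols. The submitters' processing notes name bcl2fastq 2.20.0.422, STAR 2.5.3a, HTSeq 0.6.1p1, DESeq2 1.16.1 and build mm39, with no role or order, and the strand setting is not given in the sources used here. Per the labels, the authors deposited 1 table with raw counts per gene, normalized counts, and normalized counts divided by the median transcript length in kilobases. The column layout kept the raw counts from being machine-checked as counts, so edgeR and DESeq2 were not used. In their place the deposited raw counts were analysed with limma-voom (limma 3.58.1, R 4.3.3, robust empirical Bayes). Low counts were filtered (minimum count 10, minimum total 15), which kept 99.947% of all counts, and libraries were scaled by TMM (trims 0.3 and 0.05; factors 0.959 to 1.05). The model had 1 mean for each of the 4 groups, and p-values were Benjamini-Hochberg adjusted over all 16339 genes tested. The authors' per-kilobase values were used only to order levels between genes. Symbols came from GENCODE M21 for 31717 of 32207 identifiers. Promoter windows came from RefSeq.

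Marker correlations used residuals from group means and 100000 permutations within groups. Each p-value measures spread among libraries only, which may in part be technical. The genes named beyond the 9 were set by rule: in each comparison the 3 pathway genes with the smallest p, a few further genes always, among them Rxrb, Mbp, Nrgn and Nr1d1, and the 2 genes most like each member; some genes under this rule are not reported here. The members and all lists were chosen with earlier results of these data known. No replicate block was used in the main fit, because the labels do not say that a replicate number marks a litter, day or batch. The fit was tried on simulated data with the same dispersion for every gene and no library that stood apart. That trial does not show how the fit behaves with a library such as male BPA 2. Alternatives were limma-trend, median-of-ratios scaling, no filter, a replicate block, single-sex fits, and leaving out libraries.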

Additional observations from a re-analysis of the deposited data

Results flagged for a closer look

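In 3 of the 36 combinations of member and group, 1 library lay so far from the others of its group that the gap to the nearest took up more of the group's whole range than Dixon's 95% critical value for 4 values allows. Chance flags about 1 in 20 groups. The gaps were read on CPM, and the rule was not applied on the log2 scale. All 3 were in male BPA 2, in genes that moved together across libraries, so they are not 3 independent flags. Thrb was at 9.36 CPM there and at most at 2.73 CPM in the other male BPA libraries, a gap of 0.929 of the range. Dio2 was at 110.0 CPM against at most 31.6 (0.841 of the range), and Slco1c1 at 162 CPM against at most 42.1 (0.853). The astrocyte marker sum of that library was 6998 CPM. On the log2 scale, relative to the mean of that list, the library was at -5.19 for Thrb, -1.64 for Dio2 and -1.07 for Slco1c1, each inside the range of the other 15 libraries.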

How the results depend on the processing

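No member passed under any setting: over 585 recomputed member values the lowest adjusted p was 0.428, and 39 values had another sign. The count of genes called was 1 in males, 0 in females and 3 over both sexes. It was 2 in males with limma-trend (chosen after seeing the data), 2 in males and 2 in females without a filter, 4 in males and 1 in females with single-sex fits, and 0 in males and over both sexes without male BPA 2 and female BPA 1. The replicate block gave 0 over both sexes and 1 in males, with 0 members called. Same-numbered libraries of a sex had correlations from -0.0996 to 0.205, over 0.1 in 3 of 8 pairs. Over all pairs from different groups, the mean was 0.022 for same numbers and -0.008 for other numbers. The labels do not say what the numbers mark, and these values cannot settle whether they are a pairing. Leaving out each library in turn gave 0 to 3 genes in males, 0 to 5 over both sexes and 0 to 3 for the difference of effects. The count in males was 3 without female control 4 and 0 without any other library. Over both sexes it was 5 without female control 4, 4 without male BPA 2, 3 without female control 3, female BPA 3 or female BPA 4, 1 without male control 2 and 0 without each of the other 10. The difference of effects had 3 genes without female control 4 and 0 otherwise.

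Without male BPA 2 and female BPA 1, male values were -0.31 for Thrb, -0.32 for Dio2 and -0.64 for Slco1c1, and those over both sexes -0.014 for Thrb and -0.00920 for Dio2. Slco1c1 in males was -0.00913 with limma-trend. Ncor1 in females was 0.0077 with median-of-ratios scaling, 0.00576 without a filter, 0.012 without the 2 libraries and 0.010 in the single-sex fit. With each library left out in turn, the range of log2 fold changes in males was -0.32 to 0.46 for Thrb, -0.32 to 0.63 for Dio2, -0.65 to 0.35 for Slco1c1, -0.103 to 0.037 for Klf9 and -0.0333 to 0.0511 for Ncor1. In females it was -0.014 to 0.0516 for Ncor1, -0.0249 to 0.0459 for Tbl1x and -0.00457 to 0.274 for Cbr2. Over both sexes it was -0.0352 to 0.357 for Thrb, -0.0466 to 0.432 for Dio2, -0.449 to 0.052 for Slco1c1, -0.011 to 0.034 for Ncor1 and -0.0359 to 0.00112 for Hr. The DESeq2 test was not run, and limma-voom took the place of edgeR as the main test. Depth limits Rxrg most, at 7 to 32 counts per library. The split of the members by sign and the counts at an unadjusted p without male BPA 2 were added after the data were seen.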
